A study of Mus musculus with 8 samples.

Results

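The 9 genes described here encode enzymes of methionine and one-carbon metabolism, taken by symbol from the 25078 genes of the deposited count table: Mat1a, Gnmt, Ahcy, Bhmt, Mtr, Shmt1, Cbs, Cth and Pemt. All 9 were present and all 9 passed the filter on low counts, as did 14438 genes in all. RNA was sequenced from mRNA libraries of livers of male C57/BL6 mice, 3 of them carrying a heterozygous global knockout of Midn and 5 wild type (WT), after 25 weeks on a Western-style diet rich in fat, fructose and cholesterol that every mouse received, so that no liver stands for a standard diet. The genotype label reads hemizygotes, the titles read Het, and no source used here says which part of Midn was deleted. The comparison asks how the genotype labelled Het, which the series title links to milder fatty liver, goes with the transcripts of this pathway.

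The methionine cycle turns methionine into S-adenosylmethionine, spends the methyl group of that compound on acceptors, and returns the resulting homocysteine either to methionine or, by transsulfuration, to cysteine. Folate carries the carbon units that feed the cycle, and in liver a large part of the methyl groups goes to glycine and to phosphatidylethanolamine, which becomes the phosphatidylcholine of membranes and lipoproteins. Mice that lack Mat1a, Gnmt or Bhmt are known to develop fatty liver.

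Total counts ran from 17508221 to 24916239 per liver. Midn had 60.4, 39.1 and 51.7 CPM (each count relative to the library total, after TMM scaling between libraries) in Het-labelled livers 1 to 3, against 68.7, 39.8, 71.5, 41.7 and 29.3 CPM in WT livers 1 to 5. These ranges overlap and the groups differed by 0.00 on the log2 scale (SE 0.30; adjusted p by edgeR = 0.994), so Midn RNA did not separate the labels, and the livers are called Het-labelled throughout. WT livers differed among themselves in Rpph1, an RNA without a poly(A) tail, which took 0.229, 0.399 and 0.288% of counts in Het-labelled livers 1 to 3 and 0.331, 0.899, 0.304, 0.673 and 1.06% in WT livers 1 to 5. The differences are therefore also plotted, and in part given, against WT livers 1 and 3 and against WT livers 2, 4 and 5, a split that no label names. The 8 hepatocyte markers listed (Alb, Apoa1, Ttr, Apoc3, Fgb, Hnf4a, Tat and Cps1) were detected in every liver.

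Bhmt, Shmt1 and Pemt stood higher in Het-labelled livers, by 1.87-fold, 1.70-fold and 1.28-fold, and Cth stood lower, at 0.579 of the WT level, but none of the 9 genes passed the adjusted threshold. The other 5 had log2 fold changes between 0.08 and 0.34. edgeR's quasi-likelihood test with Benjamini-Hochberg adjustment over all genes called 0 of 9 members, and 0% of the 14438 genes tested. Without adjustment, 3 of the 9 had p under 0.05 and were higher and 0 were lower, where 10.3% of all genes were higher and 5.43% lower. DESeq2 called 0 of the 9 at an adjusted p under 0.05, and 1.1% of the 15070 genes to which it gave an adjusted p. The median log2 fold change of the 9 was 0.34, that of all genes tested was 0.00, and that of the 8 hepatocyte markers was 0.36.

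**Figure D1:**
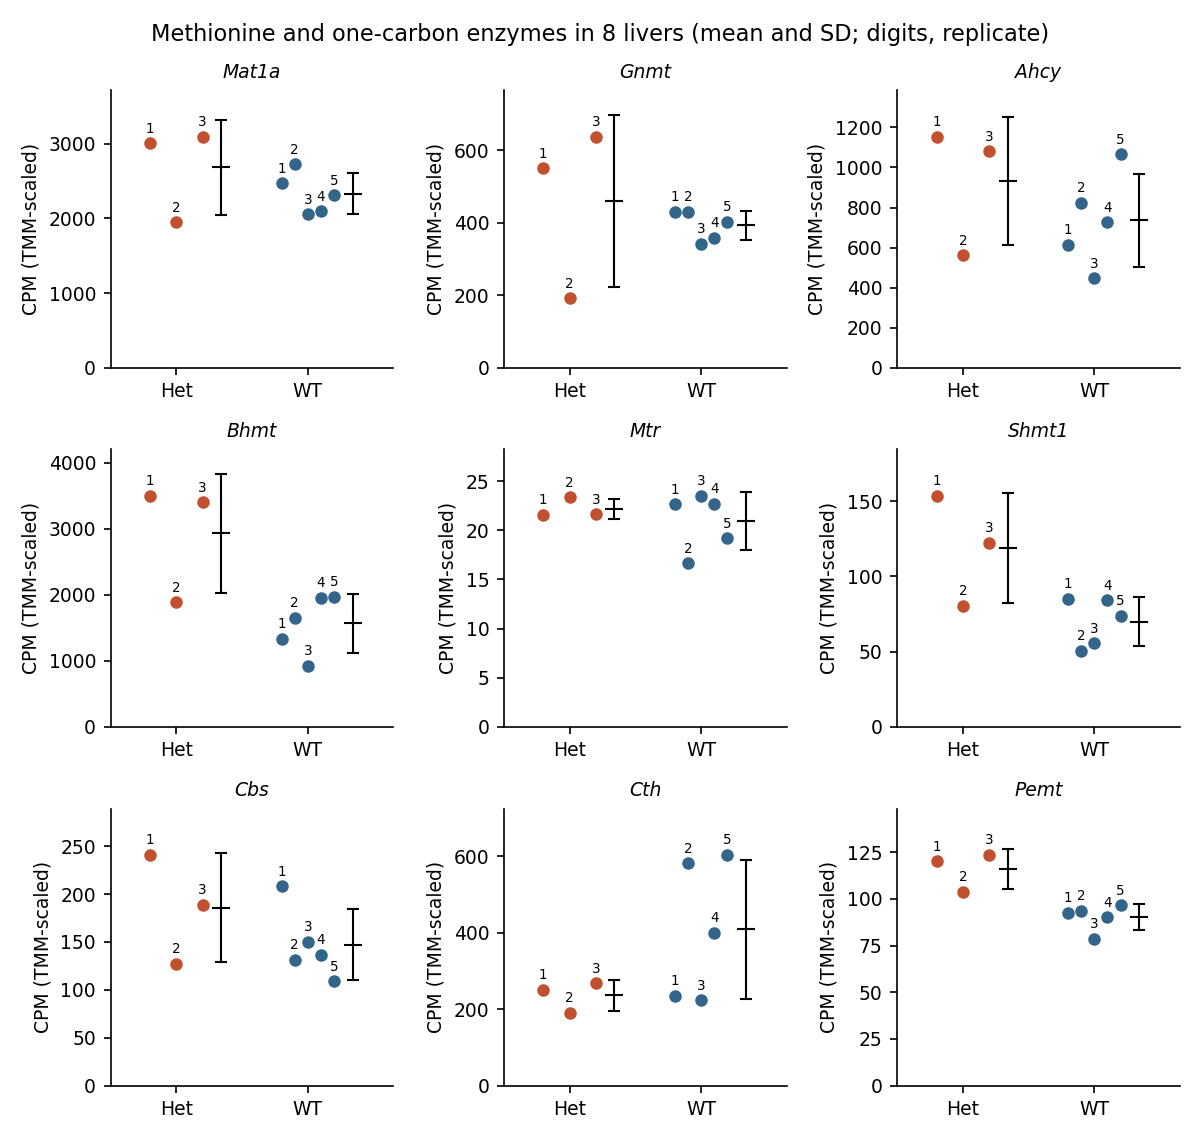
TMM-scaled CPM of each of the 9 genes (vertical axes, linear, from 0) in 3 Het-labelled livers (left, red) and 5 WT livers (right, blue); digits give the replicate, and the bar beside each group its mean and SD. Pemt is the gene whose groups do not overlap, and in Het-labelled liver 2 most members lie near or below the WT points.

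Homocysteine is remethylated with betaine or with folate, by different enzymes. Bhmt (chromosome 13, 93616891 to 93637758; mm10, as for all genes here), which passes a methyl group of betaine to homocysteine, had 3499.9, 1890.1 and 3397 CPM in Het-labelled livers 1 to 3, against 1335, 1651, 925, 1954 and 1972 CPM in WT livers 1 to 5. Het-labelled livers 1 and 3 lay above every WT liver, and Het-labelled liver 2 lay inside the WT range. Bhmt averaged 2929 ± 901 CPM in Het-labelled livers (SD, n = 3) and 1567 ± 444 CPM in WT livers (SD, n = 5). On the log2 scale Bhmt differed by 0.90 (SE 0.31, 95% interval 0.20 to 1.60; edgeR p = 0.0172, adjusted p = 0.268; exact permutation p = 0.107). The permutation test is two-sided, on log2 CPM, and its 56 assignments allow no p below 0.0357. The log2 difference of Bhmt was 1.31 against WT livers 1 and 3 (edgeR adjusted p = 0.0841) and 0.60 against WT livers 2, 4 and 5 (edgeR adjusted p = 0.132). These fits called 0.143% and 18.9% of all genes, in that order, and the split was chosen with earlier results of these data known. Gm15622, annotated antisense to Bhmt, shares exon bases with it, and without strand its reads cannot be told apart from those of Bhmt.

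Mtr (chromosome 13, 12186540 to 12258113), the cobalamin-dependent methionine synthase that takes its methyl group from folate, was the steadiest of the 9. It had 21.6, 23.4 and 21.6 CPM in Het-labelled livers, against 22.7, 16.6, 23.5, 22.7 and 19.2 CPM in WT livers. All 3 Het-labelled values lay inside the WT range, and the highest liver had 1.41 times the CPM of the lowest. Its log2 fold change was 0.08 (SE 0.15, 95% interval −0.25 to 0.42; adjusted p by edgeR = 0.776). With library size alone as the scaling, which moved the median of all genes to −0.18, the value for Mtr was −0.11, above that median.

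The promoters of Bhmt, of its neighbour Bhmt2 and of Shmt1 are shown because Bhmt and Shmt1 had the largest positive differences of the 9 members, and Bhmt2 is the paralog beside Bhmt with a profile close to that of Shmt1. Each window runs from 250 bases before the annotated start to 50 after it, on the minus strand of GRCm38.p6 (RefSeq), 5′ to 3′. Capitals mark 4 words on either strand, chosen after the sequences had been read. The first is AGGTCA, a core word of nuclear receptor sites. The second is CCAAT. The third is GGGCGG, the GC box. The fourth is TATAAA. Of the 9 members 7 had a window in the RefSeq table, and Mat1a and Cth did not.
Bhmt, chr13:93637709-93638008: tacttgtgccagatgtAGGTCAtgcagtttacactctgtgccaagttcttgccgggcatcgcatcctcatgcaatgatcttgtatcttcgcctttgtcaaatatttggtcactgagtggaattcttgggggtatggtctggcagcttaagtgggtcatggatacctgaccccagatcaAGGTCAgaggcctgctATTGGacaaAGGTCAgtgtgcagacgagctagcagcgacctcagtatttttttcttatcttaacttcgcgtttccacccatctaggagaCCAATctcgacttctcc
Bhmt2, chr13:93674253-93674552: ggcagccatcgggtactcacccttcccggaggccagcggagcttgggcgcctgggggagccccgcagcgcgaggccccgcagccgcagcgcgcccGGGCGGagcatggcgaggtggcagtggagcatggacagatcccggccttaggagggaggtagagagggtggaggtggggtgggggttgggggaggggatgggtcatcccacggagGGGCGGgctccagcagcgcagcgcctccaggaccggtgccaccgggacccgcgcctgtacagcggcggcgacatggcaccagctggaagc
Shmt1, chr11:60811216-60811515: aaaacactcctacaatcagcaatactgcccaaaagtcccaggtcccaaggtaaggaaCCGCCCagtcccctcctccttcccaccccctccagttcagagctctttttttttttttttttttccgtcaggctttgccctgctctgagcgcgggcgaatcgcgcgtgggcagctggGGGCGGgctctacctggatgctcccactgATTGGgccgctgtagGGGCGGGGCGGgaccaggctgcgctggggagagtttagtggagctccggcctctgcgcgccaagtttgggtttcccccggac
The Bhmt window held 3 copies of AGGTCA and 2 copies of the CCAAT word. At least 1 copy of AGGTCA was in 16.26% of the 32851 windows of 300 bases in the table, and 3 or more in 0.183%. The Bhmt2 window held 2 copies of GGGCGG and the Shmt1 window 4, some overlapping, and the Shmt1 window also held 1 CCAAT word. Over all windows 35.66% held the GC box at least 1 time and 10.7% held it 3 or more times, and 37.41% held the CCAAT word. TATAAA was in none of the 3 and in 13.62% of all windows. CpG dinucleotides numbered 8 in the Bhmt window, 26 in that of Bhmt2 and 17 in that of Shmt1, with a median of 7 over all windows. A match is a description of the letters and not evidence of a site.

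Shmt1 (chromosome 11, 60788897 to 60811265), the cytosolic enzyme that moves a carbon from serine to tetrahydrofolate, had 154, 80.6 and 122 CPM in Het-labelled livers 1 to 3, against 85.3, 50.5, 55.5, 84.3 and 73.8 CPM in WT livers 1 to 5. Het-labelled livers 1 and 3 lay above every WT liver, while Het-labelled liver 2 lay just under WT livers 1 and 4. The means were 119 ± 36.7 CPM in Het-labelled livers (SD, n = 3) and 69.9 ± 16.1 CPM in WT livers (SD, n = 5). Shmt1 differed by 0.77 on the log2 scale (SE 0.25, 95% interval 0.20 to 1.33; edgeR p = 0.0129, adjusted p = 0.265; exact permutation p = 0.107). It was 0.69 against WT livers 1 and 3 and 0.72 against WT livers 2, 4 and 5, close to each other in size (adjusted p by edgeR = 0.174 and 0.0837). Those fits called 0.143% and 18.9% of all genes, in that order, on a split chosen with earlier results of these data known.

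Pemt (chromosome 11, 59970614 to 60046489), which methylates phosphatidylethanolamine to phosphatidylcholine in the endoplasmic reticulum, had 120.1, 104 and 124 CPM in Het-labelled livers, against 92.5, 93.7, 78.7, 90.2 and 96.5 CPM in WT livers. Every Het-labelled liver lay above every WT liver, the only member for which this held; over all genes tested 7.54% had all Het-labelled livers above all WT livers and 2.32% had them below. The means were 116 ± 10.6 CPM in Het-labelled livers (SD, n = 3) and 90.3 ± 6.87 CPM in WT livers (SD, n = 5). Pemt differed by 0.36 on the log2 scale (SE 0.13, 95% interval 0.07 to 0.65; edgeR p = 0.0217, adjusted p = 0.273; exact permutation p = 0.0357, the lowest the design allows). With library size alone the log2 fold change of Pemt was 0.17 and its unadjusted edgeR p was 0.222. In that setting the median log2 fold change of all genes was −0.18.

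Cth (chromosome 3, 157894248 to 157925063), the cystathionine gamma-lyase that releases cysteine at the end of transsulfuration, was the member with a negative difference. It had 251, 191 and 268 CPM in Het-labelled livers 1 to 3, against 235, 581, 223, 400.2 and 604 CPM in WT livers 1 to 5. WT livers 2, 4 and 5 lay above all others, and WT livers 1 and 3 lay among the Het-labelled livers. The means were 237 ± 40.6 CPM in Het-labelled livers (SD, n = 3) and 409 ± 182 CPM in WT livers (SD, n = 5). On the log2 scale Cth differed by −0.79 (SE 0.37, 95% interval −1.63 to 0.06; edgeR p = 0.0642, adjusted p = 0.338; exact permutation p = 0.214). Against WT livers 2, 4 and 5 Cth was at −1.21 (SE 0.21; adjusted p by edgeR = 0.0283), in a fit that called 2632 of 13922 genes, or 18.9%, and 1 of the 9 members. Against WT livers 1 and 3 it was at −0.02 (SE 0.17; adjusted p by edgeR = 0.954). WT livers 2, 4 and 5 are those with the high Rpph1 share, and the split was chosen with earlier results of these data known. The part of that share in the result was not tested.

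Cbs (chromosome 17, 31612623 to 31637205), which joins homocysteine and serine to cystathionine in the step before Cth, had 241, 127 and 189 CPM in Het-labelled livers, against 208, 131, 150.2, 137 and 109 CPM in WT livers. The groups overlapped widely, with 1 Het-labelled liver above the WT range. Cbs differed by 0.34 on the log2 scale (SE 0.26, 95% interval −0.24 to 0.92; edgeR adjusted p = 0.507). It was −0.01 against WT livers 1 and 3 and 0.51 against WT livers 2, 4 and 5.

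**Figure D2:**
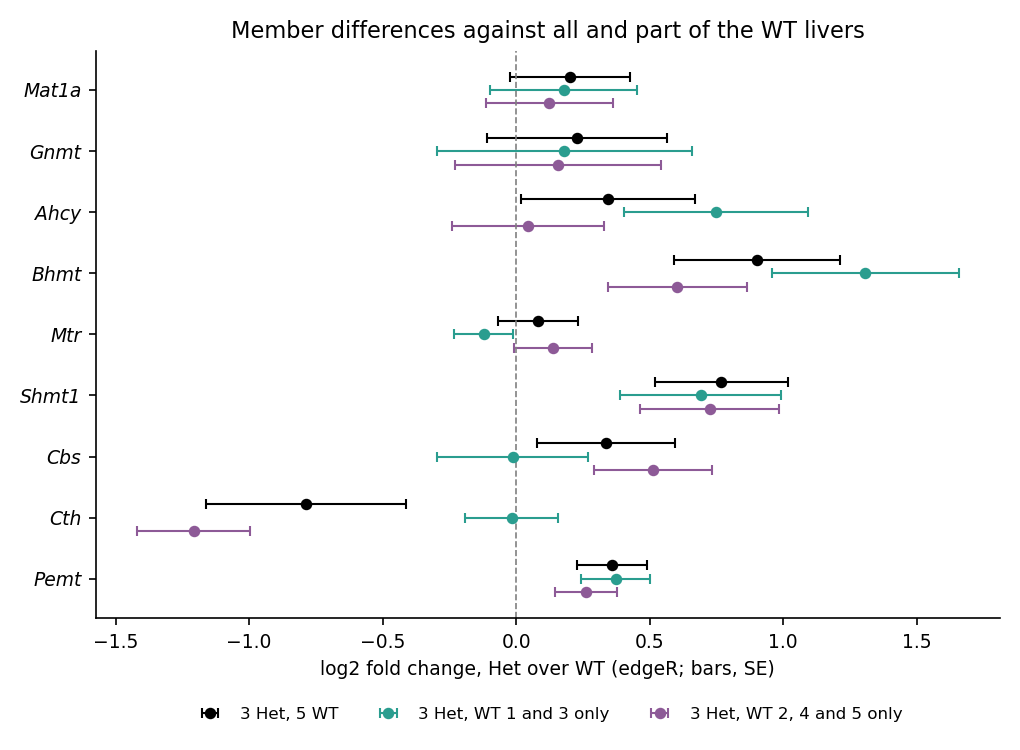
log2 fold change of each gene, Het-labelled over WT (horizontal axis; points, edgeR estimates; bars, SE), with all 5 WT livers (black), WT livers 1 and 3 (green) and WT livers 2, 4 and 5 (purple). The 3 estimates lie close together for Gnmt, Mat1a and Shmt1 and far apart for Cth, from −1.21 to −0.02.

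Mat1a (chromosome 14, 41105033 to 41124428), which makes S-adenosylmethionine in adult liver, had 3010.4, 1945 and 3094 CPM in Het-labelled livers, against 2471, 2725, 2058, 2092 and 2309.6 CPM in WT livers. Het-labelled livers 1 and 3 were above and Het-labelled liver 2 below all WT livers. Mat1a differed by 0.20 on the log2 scale (SE 0.22, 95% interval −0.30 to 0.71; edgeR adjusted p = 0.634). Gnmt (chromosome 17, 46725664 to 46729165), which methylates glycine and takes up surplus S-adenosylmethionine, had 550.2, 191 and 637 CPM in Het-labelled livers, against 429.8, 429.8, 342, 358 and 402 CPM in WT livers. Its spread was 236 CPM in Het-labelled livers (SD, n = 3, mean 459) and 40.6 CPM in WT livers (SD, n = 5, mean 392), and again Het-labelled liver 2 was below and Het-labelled livers 1 and 3 above every WT liver. Its log2 fold change of 0.23 (SE 0.34; edgeR adjusted p = 0.724) moved with the liver left out: it was 0.60 without Het-labelled liver 2 and −0.08 without Het-labelled liver 3. Ahcy (chromosome 2, 155059312 to 155074497), which splits S-adenosylhomocysteine and so removes the inhibitor of methyltransferases, had 1154, 563 and 1080.1 CPM in Het-labelled livers, against 613, 824, 446, 726 and 1067.5 CPM in WT livers. Its log2 fold change was 0.34 (SE 0.33, 95% interval −0.39 to 1.08; edgeR adjusted p = 0.584), 0.75 against WT livers 1 and 3 and 0.04 against WT livers 2, 4 and 5.

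**Figure D3:**
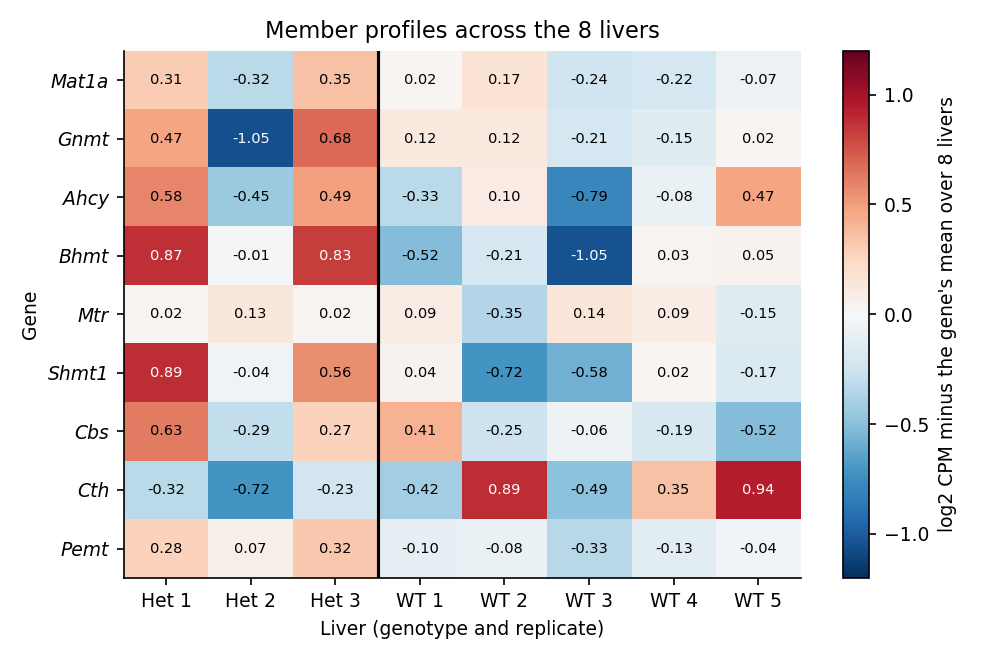
log2 CPM of each gene (rows) in each liver (columns, Het-labelled left of the line) minus the gene's mean over the 8 livers; red is above and blue below that mean. Gnmt in Het-labelled liver 2 reaches −1.05, as does Bhmt in WT liver 3, Cth in WT liver 5 reaches 0.94, and Mtr stays between −0.35 and 0.14.

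Het-labelled liver 2 parted from its group in most of these genes. Without it, 6 of the 9 members had both remaining Het-labelled livers above every WT liver (Mat1a, Gnmt, Ahcy, Bhmt, Shmt1 and Pemt), and 4 members were higher at an unadjusted edgeR p under 0.05. In the same setting 22.3% of all genes tested had both Het-labelled livers above every WT liver, and 13.4% were higher at that p. Without Het-labelled liver 1 the members at that p numbered 0, with 3.9% of all genes higher, and without Het-labelled liver 3 they numbered 1, with 4.29% of all genes higher. The counts over all genes thus moved the same way as those of the members. The 9 members together took 0.784, 0.543 and 0.761% of counts in Het-labelled livers 1 to 3, against 0.624, 0.671, 0.547, 0.560 and 0.591% in WT livers 1 to 5.

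Cell type markers also differed between the livers. The summed CPM of the 8 hepatocyte markers was 70509, 40174 and 60186 in Het-labelled livers 1 to 3 and between 37681.5 and 44548 in WT livers, so that Het-labelled liver 2 was again the low one of its group. The 6 bile duct markers summed to 149, 743 and 164 CPM in Het-labelled livers and to between 408 and 881 CPM in WT livers. Most of that sum was Spp1, with a mean of 320 CPM in Het-labelled livers and 559 CPM in WT livers. The 8 macrophage markers summed to between 522 and 803 CPM in Het-labelled livers and between 538 and 1834 CPM in WT livers. All 7 pericentral markers were higher at an unadjusted edgeR p under 0.05, with a median log2 fold change of 1.39. After adjustment edgeR called 0 of the 7 and DESeq2 called 4, where DESeq2 called 1.1% of all genes. The pericentral sum ran from 6364 to 10173.5 CPM in Het-labelled livers and from 1785 to 3587 CPM in WT livers. Of the periportal markers 1 of 7 was higher at an unadjusted edgeR p under 0.05 and 0 were lower, and their sums overlapped. At that unadjusted level 10.3% of all genes were higher and 5.43% lower. The 4 B cell markers summed to between 2.26 and 4.79 CPM in Het-labelled livers and between 4.997 and 8.33 CPM in WT livers, and the sums of T and NK cell, stellate cell and endothelial markers overlapped. In whole liver, more cells of a type and more RNA per cell cannot be told apart, and the part of these markers in the results was not tested.

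Set against the hepatocyte marker sum of the same liver, a scale added after seeing the data, Shmt1 and Cth were the members whose groups did not overlap. Shmt1 was at 0.218, 0.201 and 0.203% of that sum in Het-labelled livers, against 0.191, 0.117, 0.140, 0.199 and 0.196% in WT livers (log2 difference 0.33; exact permutation p = 0.0357, the smallest possible). Cth was at 0.356, 0.475 and 0.445% in Het-labelled livers, against 0.527, 1.34, 0.562, 0.947 and 1.60% in WT livers (log2 difference −1.10; exact permutation p = 0.0357). Bhmt was at 4.96, 4.70 and 5.64% in Het-labelled livers, against 2.996, 3.82, 2.33, 4.62 and 5.23% in WT livers (0.48; exact permutation p = 0.143). For Pemt the log2 difference on this scale was −0.06 (exact permutation p = 0.679), with overlapping groups. Among the hepatocyte markers themselves 2 of 8 were higher at an unadjusted edgeR p under 0.05, where 10.3% of all genes were. The median log2 fold change of these markers was 0.36. The sum is mostly albumin: Alb made up 75.5, 72.9 and 73.2% of it in Het-labelled livers and 69.8, 67.9, 69.9, 69.9 and 67.8% in WT livers, while Cps1, another of the markers, had a log2 fold change of −0.33. Over the 7 markers without Alb, Shmt1 was again higher in every Het-labelled liver (log2 difference 0.57; exact permutation p = 0.0357), Bhmt was too (0.73; exact permutation p = 0.0357), and the groups overlapped for Cth (−0.85; exact permutation p = 0.0714) and Pemt (0.18; exact permutation p = 0.25). No p on this scale was adjusted for the 9 members. Only the members were put on it, so the share of all genes whose groups do not overlap there is not known.

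Levels of different genes were compared in RPKM, the authors' values per exon length. Over the 8 livers the medians ran, from high to low, from Bhmt (902 RPKM) and Mat1a (676 RPKM) through Gnmt (385 RPKM), Ahcy (292 RPKM) and Cth (138 RPKM) to Pemt (75.2 RPKM), Cbs (57.3 RPKM), Shmt1 (38.8 RPKM) and Mtr (4.79 RPKM). The range of Cth lay wholly above that of Pemt, and the range of Shmt1 wholly above that of Mtr, but every other pair of neighbours had overlapping ranges. Within a liver Bhmt exceeded Mat1a in 6 of 8 livers, Gnmt exceeded Ahcy in 6 of 8, and Pemt exceeded Cbs in 7 of 8. The order of the other neighbours was the same in all 8 livers.

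Ratios within a liver need no scaling between libraries, and 7 pairs of alternative or successive enzymes were compared. None of the 7 reached an unadjusted p under 0.05 in two-sided exact permutation tests, and the lowest adjusted p was 0.625. A single ratio could not have gone below an adjusted p of 0.25. For any to fall under 0.05, 6 of the 7 would have to reach the smallest p of 0.0357, so the adjusted threshold says little here. The Bhmt to Mtr ratio of RPKM was 351, 175 and 339.96 in Het-labelled livers and 127, 215, 85.1, 186 and 222 in WT livers, a log2 difference of 0.81 (exact permutation p = 0.143). The Gnmt to Mat1a ratio was nearly constant in WT livers, at 0.587, 0.533, 0.561, 0.578 and 0.588, while the Het-labelled livers had 0.617, 0.332 and 0.695, on both sides of the WT range. The Cbs to Cth ratio was 0.691, 0.480 and 0.507 in Het-labelled livers, against 0.638, 0.163, 0.485, 0.246 and 0.130 in WT livers (log2 difference 1.00; exact permutation p = 0.179). Pemt to Pcyt1a, the enzyme that limits the choline route to phosphatidylcholine, averaged 3.37 ± 0.346 in Het-labelled livers (SD, n = 3) and 3.24 ± 0.206 in WT livers (SD, n = 5), with overlapping ranges. Shmt1 to Shmt2, the mitochondrial serine enzyme, averaged 0.840 ± 0.0612 in Het-labelled livers and 0.893 ± 0.180 in WT livers, with overlapping ranges. Mat1a to Mat2a, the form used by most other tissues, averaged 17.0 ± 7.10 in Het-labelled livers and 12.7 ± 3.44 in WT livers. Cbs to Mtr averaged 15.1 ± 5.13 in Het-labelled livers and 12.6 ± 2.63 in WT livers.

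**Figure D4:**
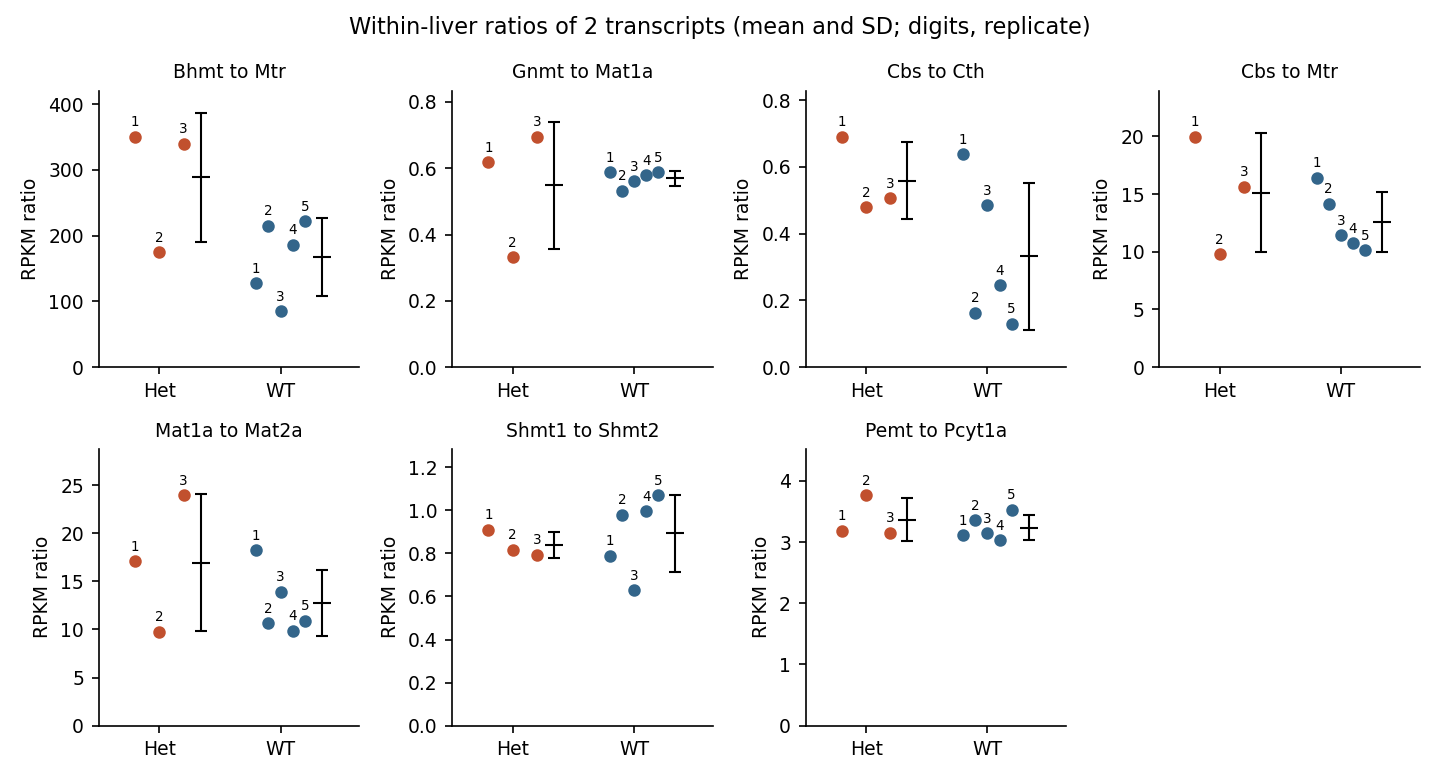
Ratios of RPKM between 2 genes in each liver (vertical axes, linear, from 0), Het-labelled left of WT; digits give the replicate, and bars the mean and SD. The 5 WT livers have Gnmt to Mat1a ratios between 0.533 and 0.588, with Het-labelled liver 2 at 0.332.

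Genes around the 9 members were read from 7 lists of 88 genes, of which 87 were tested. With unadjusted edgeR p below 0.05, 27 were higher and 2 lower in Het-labelled livers, where the shares of all genes were 10.3 and 5.43%. None passed after adjustment (edgeR, 0 of 87), and DESeq2 called 3 higher, Adi1 and Mpst among them, and 1 lower (Mthfd2l). Of all genes to which it gave an adjusted p, DESeq2 called 1.1%. For 14 of the 87 all Het-labelled livers lay above all WT livers and for 1 below. Of all genes tested, 7.54% lay above and 2.32% below in this way. The median log2 fold change of the 87 was 0.24. With library size alone the split at an unadjusted p under 0.05 was 13 higher and 5 lower, where 2.96% of all genes were higher and 8.3% lower. It was 16 and 2 without Het-labelled liver 1 (all genes, 3.9% and 1.5%) and 18 and 2 without Het-labelled liver 3 (all genes, 4.29% and 1.67%).

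Among 13 tested genes of the methionine cycle and its salvage branch, 5 were higher with unadjusted p below 0.05 and 0 were lower. Beside this list and the next, 10.3% of all genes were higher and 5.43% lower at that level. Adi1, a dioxygenase of methionine salvage, averaged 159 ± 28.8 CPM in Het-labelled livers (SD, n = 3) and 89.6 ± 17.7 CPM in WT livers (SD, n = 5), a log2 fold change of 0.83 (edgeR adjusted p = 0.259; DESeq2 adjusted p = 0.0496). Bhmt2, which uses S-methylmethionine and lies beside Bhmt on chromosome 13, had 215, 127 and 205 CPM in Het-labelled livers, against 119, 83.1, 85.5, 126 and 113 CPM in WT livers (0.79). These groups touched without overlapping, and Het-labelled liver 2 was again the lowest of its group. Ahcyl2, a relative of Ahcy, differed by 0.53. Of 10 other methyltransferases 3 were higher and 0 lower at that level, among them Gamt, which makes creatine (log2 fold change 0.74), and Icmt, which methylates prenylated proteins (0.46).

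Of 10 genes of choline, betaine and glycine metabolism, 5 had unadjusted p below 0.05, 4 of them higher and 1 lower. For this list and the folate list, the shares of all genes were 10.3% higher and 5.43% lower. Aldh7a1, which oxidises betaine aldehyde to betaine, averaged 409 ± 128 CPM in Het-labelled livers and 217 ± 56.6 CPM in WT livers (log2 fold change 0.91; edgeR adjusted p = 0.259). Sardh, which removes the methyl group that Gnmt puts on glycine, averaged 753 ± 247 CPM in Het-labelled livers and 404 ± 84.8 CPM in WT livers (0.90), and Pipox, a peroxisomal oxidase of sarcosine and pipecolate, 170.1 ± 44.6 CPM in Het-labelled livers and 107 ± 7.82 CPM in WT livers (0.67). The lower one was Gatm, the first enzyme of creatine synthesis, at −0.46, named after its value was seen. The folate list was mixed, with 5 higher and 1 lower of 21 and a median of 0.03. Fpgs, which traps folate in cells as polyglutamate, differed by 0.84, and the folate transporter gene Slc46a1 by 0.69. Mthfd2l, a mitochondrial folate enzyme, had 24, 34 and 30 counts in Het-labelled livers, against 52, 98, 73, 65 and 77 counts in WT livers, a log2 fold change of −1.33 (DESeq2 adjusted p = 0.0260). Shmt2 differed by 0.81, close to Shmt1.

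Downstream of Cth, 3 of 12 genes of cysteine, glutathione and sulfide metabolism were higher with unadjusted p below 0.05 and 0 were lower. For this list and the cobalamin and phospholipid lists, the shares of all genes were 10.3% higher and 5.43% lower. Mpst, which makes sulfide from mercaptopyruvate, averaged 53.5 ± 15.8 CPM in Het-labelled livers and 28.6 ± 3.88 CPM in WT livers (log2 fold change 0.91; DESeq2 adjusted p = 0.0378). Gclc, the catalytic subunit of the first enzyme of glutathione synthesis, differed by 0.46 and sulfite oxidase, Suox, by 0.42. Of the 9 cobalamin genes 4 were higher and 0 lower, with Abcd4, a lysosomal cobalamin exporter, at 0.71, Mmachc, which processes cobalamin for Mtr, at 0.50, and Mmab at 0.45. In the phospholipid list 3 of 12 were higher and 0 lower. Ptdss1, which makes phosphatidylserine, averaged 54.5 ± 2.59 CPM in Het-labelled livers and 35.6 ± 4.72 CPM in WT livers (0.61), and the ethanolamine route genes Selenoi and Pcyt2 differed by 0.44 and 0.51.

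**Figure D5:**
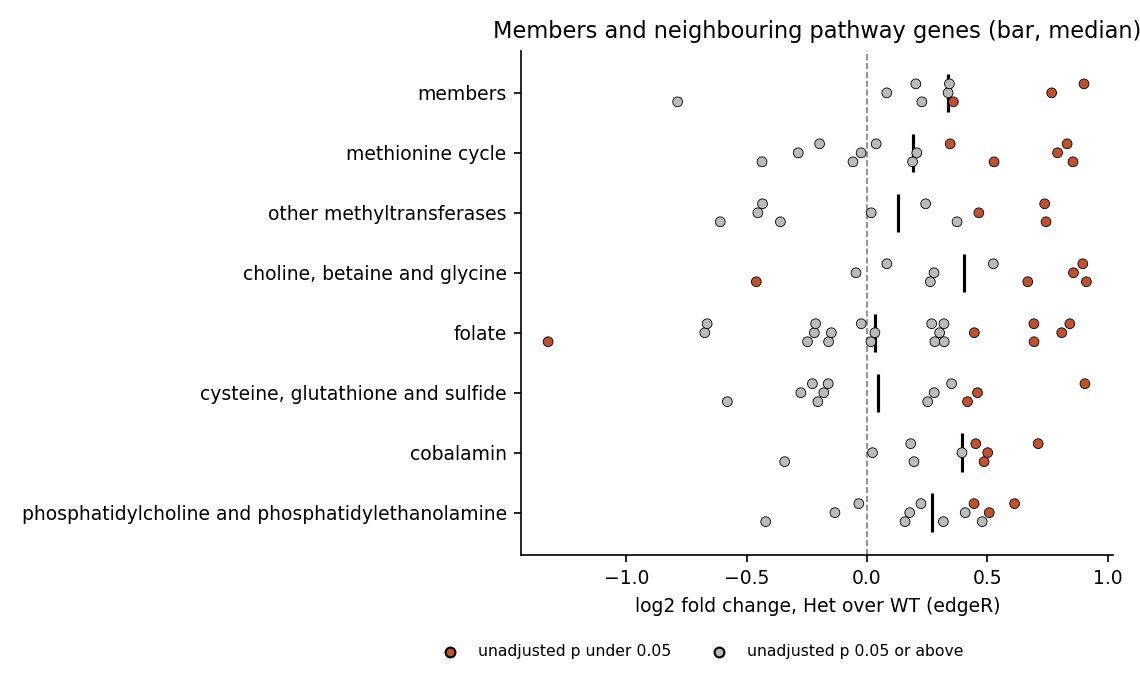
log2 fold change, Het-labelled over WT (horizontal axis, edgeR), of the 9 members (top row) and of the tested genes of 7 neighbouring lists; red points have an unadjusted p under 0.05, grey points do not, and black bars mark medians. Medians run from 0.03 in the folate list to 0.40 in the choline, betaine and glycine list.

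The genes most like each member were sought among 8982 others with a mean of at least 10 CPM, by the root mean square difference of log2 CPM after centring over the 8 livers. Nearest to Bhmt were Ldhd, a mitochondrial D-lactate dehydrogenase (0.09), and Prodh, which oxidises proline (0.13). Nearest to Shmt1 were Masp2, a complement protease (0.09), and Bhmt2 (0.09). Gnmt had no close partner, the nearest being Vps37b and Apol9b (0.23 each), and Cth was nearest to 9030616G12Rik and Zfp729a (0.17 each). For Ahcy the nearest were Haao and Bag4 (0.13 each), for Cbs Bcar1 and Serping1 (0.09 each), and for Mat1a Helb (0.07) and Slc30a1 (0.08). Pemt was nearest to Ipo8 and Yipf1 (0.05 each) and Mtr to Ankrd13a and Farsa (0.06 each), in both cases at small distances that go with their own small variation. Among the members themselves Mat1a and Pemt were nearest to each other, at 0.17.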

How the data were processed

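Messenger RNA of 8 mouse livers, 3 Het-labelled and 5 WT, was sequenced from KAPA mRNA HyperPrep libraries, per the labels. The submitters' processing notes name bcl2fastq (2.18.0.12), HTSeq, STAR and build mm10; the annotation, counting mode and use of strand are not stated there, so overlapping and antisense genes cannot be separated. No other gene of the deposited table overlaps a member, and in GENCODE M21 Gm15622, antisense to Bhmt, shares exon bases with it. The authors deposited raw counts per gene and RPKM values; the library totals implied by RPKM, counts and exon lengths are 0.888 to 1.25 of the summed counts. Unused sample columns numbered 0.

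Groups came from the genotype label and replicate numbers from accession order, so they pair nothing. The labels do not describe separate cultures or cages, so each p-value reflects only how these libraries vary. Between replicates, chi-square per degree of freedom was at least 36.0 in Het-labelled and 22.9 in WT livers, so no library was counted as a repeat. The filterByExpr function of edgeR (minimum count 10, minimum total 15) chose the genes, TMM (factors 0.852 to 1.27) scaled them, and the robust, two-sided quasi-likelihood test of edgeR compared the genotypes, adjusted by Benjamini-Hochberg at 0.05 over all genes tested. DESeq2 was run on genes with any count, with independent filtering at 0.05. CPM on the log2 scale has a prior count of 2. Intervals are at 95%. The edgeR and DESeq2 procedures were also run on simulated data, and the outcome of those runs is not reported here. The members, lists and rules were chosen with earlier results of these data known. Named were all members, the 3 genes of smallest edgeR p per list, ratio partners, and the 2 most similar genes per member, with Midn, Rpph1 and Rn45s as checks; 1 gene that this rule names is not reported here. Tools were edgeR 4.0.16, DESeq2 1.42.0 and limma 3.58.1 in R 4.3.3, and matplotlib 3.10.9 in Python 3.11.15.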

Additional observations from a re-analysis of the deposited data

How the results depend on the processing

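edgeR called 0 of the 9 members, 0 of all genes and 0 of the pathway genes when any 1 liver was left out, and with RLE scaling, library size alone, no filter on low counts, a filter at a mean of 1 CPM, no robust estimation or without Rn45s and Rpph1, and limma-voom and limma on log2 RPKM (pseudocount 0.1 or 1) called 0 too. DESeq2 called 166 genes (1.1% of those to which it gave an adjusted p), 0 members and 4 pathway genes. Against WT livers 2, 4 and 5 edgeR called 2632 genes (18.9%), 1 member (Cth, lower) and 16 pathway genes, 8 in each direction; against WT livers 1 and 3 it called 21 genes (0.143%) and 0 members. At an unadjusted p under 0.05 the members counted 3, and 0 to 4 without 1 liver. The pathway genes counted 29, 18 to 35 without 1 liver, 18 with library size alone and 47 against WT livers 2, 4 and 5, where the shares of all genes higher and lower were 10.3 and 5.43% with all livers, 2.96 and 8.3% with library size alone, and 18.8 and 18.7% against WT livers 2, 4 and 5. Without 1 liver the share of all genes higher was 3.9 to 13.4%. Members whose groups do not overlap numbered 1, or 1 to 6 without 1 liver. They numbered 2 with library size alone and 2 against each part of the WT livers. Of all genes, 7.54% lay above and 2.32% below with all livers, and 3.16% and 3.75% with library size alone. Without 1 liver 6.39 to 22.3% lay above and 3.03 to 13.1% below. Against WT livers 2, 4 and 5 these shares were 21.2 and 21.4%, and against WT livers 1 and 3 they were 26.7 and 26%. Under all alternatives 182 member fold changes kept sign and call, 1 gained a call (Cth) and 15 turned their sign, while 70 ratio values kept theirs and 7 turned; the cause was not tested. With library size alone Mat1a was −0.0106, Gnmt −0.0181 and Mtr −0.11 (median of all genes −0.18). Against WT livers 1 and 3 Mtr was −0.12 and Cbs −0.0136, and the log2 differences in ratio were −0.0105 for Cbs to Cth, −0.0040 for Mat1a to Mat2a and 0.25 for Shmt1 to Shmt2. Relative to the hepatocyte marker sum, Mat1a was −0.24, Gnmt −0.37, Ahcy −0.0884, Mtr −0.33, Cbs −0.0989 and Pemt −0.0639, and relative to that sum without Alb, Gnmt was −0.12 and Mtr −0.0823. With 1 liver left out Gnmt ran from −0.0764 to 0.60, Mtr from −0.0355 to 0.11, Bhmt from 0.71 to 1.14, Shmt1 from 0.54 to 0.99, Pemt from 0.27 to 0.44 and Cth from −0.99 to −0.60. The log2 differences in ratio then ran from −0.0024 to 0.51 for Cbs to Mtr, −0.33 to 0.20 for Gnmt to Mat1a, −0.0282 to 0.10 for Pemt to Pcyt1a and −0.18 to 0.0068 for Shmt1 to Shmt2. No paired analysis was possible because the labels give no replicate number or pairing shared by the genotypes.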
